A study of Homo sapiens with 12 samples.

Results

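The genes described here are 40 human genes of ribosome biogenesis and the nucleolus, taken as a fixed list of symbols. All 40 were found by symbol among the 33694 human gene identifiers of the count files, and all 40 were abundant enough to be tested. By what their proteins are known to do they were split into RNA polymerase I and its regulator (4 genes), proteins of small nucleolar ribonucleoproteins (snoRNPs) and their chaperone (8), small subunit assembly (9), large subunit assembly (14) and multifunctional nucleolar proteins (5). They were measured in A375-BIR, a derivative of the human melanoma cell line A375 that is resistant to BRAF inhibitors, and in A375 itself, a line that carries an activating BRAF mutation. Each line received dabrafenib, a BRAF kinase inhibitor, at 200 nM for 48 h, or the solvent DMSO at 0.1%. The groups are A375-BIR with dabrafenib (3 libraries), A375-BIR with DMSO (3), A375 with dabrafenib (3) and A375 with DMSO (1 usable library of 3 deposited). The labels call the 3 samples of a group biological replicates and give no clone number for A375-BIR, so how far it stands for resistant cells in general is not known. A library is a pool of cells, in which fewer cells of a kind and less RNA per cell cannot be told apart.

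Ribosomes are made in the nucleolus. RNA polymerase I transcribes a long precursor RNA there, snoRNPs guide its methylation and pseudouridylation, and separate sets of assembly factors fold and cut it into the small and the large subunit. Growing cells raise the pathway, many of its genes are known targets of the transcription factor MYC, and the ERK kinase cascade, which BRAF feeds in melanoma, is one of the inputs to MYC and to RNA polymerase I.

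Because MYC binds the E-box CACGTG with its partner MAX, the promoters were searched for those 6 letters, which read the same on both strands. RefSeq promoters (build GRCh38.p14) were in the table used for 34 of the 40 genes; NOP58, NOLC1, RRP12, BOP1, RRS1 and URB2 had none there. In the 250 bases before the start, CACGTG was found in 2 of 34 promoters (5.88%), against 6.49% of all 27305 promoters and 9.06% of the 8340 promoters of tested genes. In the last 100 bases it was found in 1 of 34 (2.94%), against 3.46% and 4.86%. The stretches of 40 bases that hold it are shown with the E-box in capitals, since they are the matches in EBNA1BP2 and UTP20, of which only the first was called between the lines in dabrafenib.
EBNA1BP2: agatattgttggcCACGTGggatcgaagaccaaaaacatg
UTP20: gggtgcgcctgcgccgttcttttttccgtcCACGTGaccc
The EBNA1BP2 stretch is chr1:43172781-43172820 on the minus strand, bases -250 to -211 from the start, with the E-box beginning at base -237. The UTP20 stretch is chr12:101280065-101280104 on the plus strand, bases -40 to -1, with the E-box beginning at base -10. A match of letters is a description and shows no binding.

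The values are raw counts of 3′ tag reads per gene, and the levels below are CPM, in which the counts of tested genes in each library are brought to a common total scaled by TMM, a factor that keeps a few abundant genes from setting the scale. Gene counts per library ranged from 391210 to 971347 in A375-BIR with dabrafenib, from 579288 to 1100917 in A375-BIR with DMSO and from 198690 to 493398 in A375 with dabrafenib, and came to 1999840 in the A375 DMSO library. For A375 DMSO replicates 2 and 3 the files list mouse genes, although the labels say human, and both were left out. In their names all 3 A375 DMSO files bear a stamp other than that of the 9 remaining files. It is read here as a run stamp. Wherever A375 with DMSO enters, the effect of the run cannot be told apart from that of the group, and the fit assumes that its lone library varies like those of the other groups. Mitochondrial transcripts made up 4.88% to 7.21% of gene counts in A375-BIR with dabrafenib, 4.63% to 5.49% in A375-BIR with DMSO, 10.7% to 15.1% in A375 with dabrafenib and 15.1% in the A375 DMSO library. The summed level of 8 melanocyte lineage markers was 230 to 332 CPM in A375-BIR with dabrafenib, 211 to 236 CPM in A375-BIR with DMSO, 2973 to 3551 CPM in A375 with dabrafenib and 1532 CPM in A375 with DMSO. Of these markers TYR had no count in any A375-BIR library, and MLANA had 1 count over all 10 libraries, so that it was near absent in both lines. SOX10 averaged 53.8 CPM in A375-BIR with dabrafenib and 962 CPM in A375 with dabrafenib. Leukocyte markers summed to at most 2.54 CPM and endothelial markers to at most 4.40 CPM in any library, and fibroblast markers to 8.46 to 30.9 CPM.

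The 40 genes together took about the same share of RNA in A375-BIR with and without dabrafenib and a smaller share in A375 with dabrafenib. Their share of gene counts was 0.875%, 0.787% and 0.907% in A375-BIR with dabrafenib, 0.843%, 0.856% and 0.848% in A375-BIR with DMSO, 0.487%, 0.488% and 0.488% in A375 with dabrafenib, and 0.689% in the A375 DMSO library. With mitochondrial transcripts and the nuclear RNA MALAT1 taken out of the total, the share was 0.946%, 0.864% and 1.04% in A375-BIR with dabrafenib, 0.909%, 0.937% and 0.923% in A375-BIR with DMSO, 0.578%, 0.585% and 0.640% in A375 with dabrafenib, and 0.836% in A375 with DMSO. On both scales every A375 library with dabrafenib lay below every other library. The summed level, on the CPM scale, was 8332 ± 756 in A375-BIR with dabrafenib, 8106 ± 226 in A375-BIR with DMSO, 5157 ± 276 in A375 with dabrafenib (SD, n = 3 each) and 8647 in the A375 DMSO library. By both shares the A375 DMSO library lay below every A375-BIR library. By summed level it lay above all of them except replicate 3 with dabrafenib. In 4 of the 5 role groups the summed level of every A375 library with dabrafenib was again below that of every other library. The RNA polymerase I group differed, with summed levels of 217 to 243 CPM in A375-BIR with dabrafenib and 182 to 214 CPM in A375-BIR with DMSO, against 165 to 187 CPM in A375 with dabrafenib and 176 CPM in A375 with DMSO, so that the A375 groups overlapped.

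**Figure D1:**
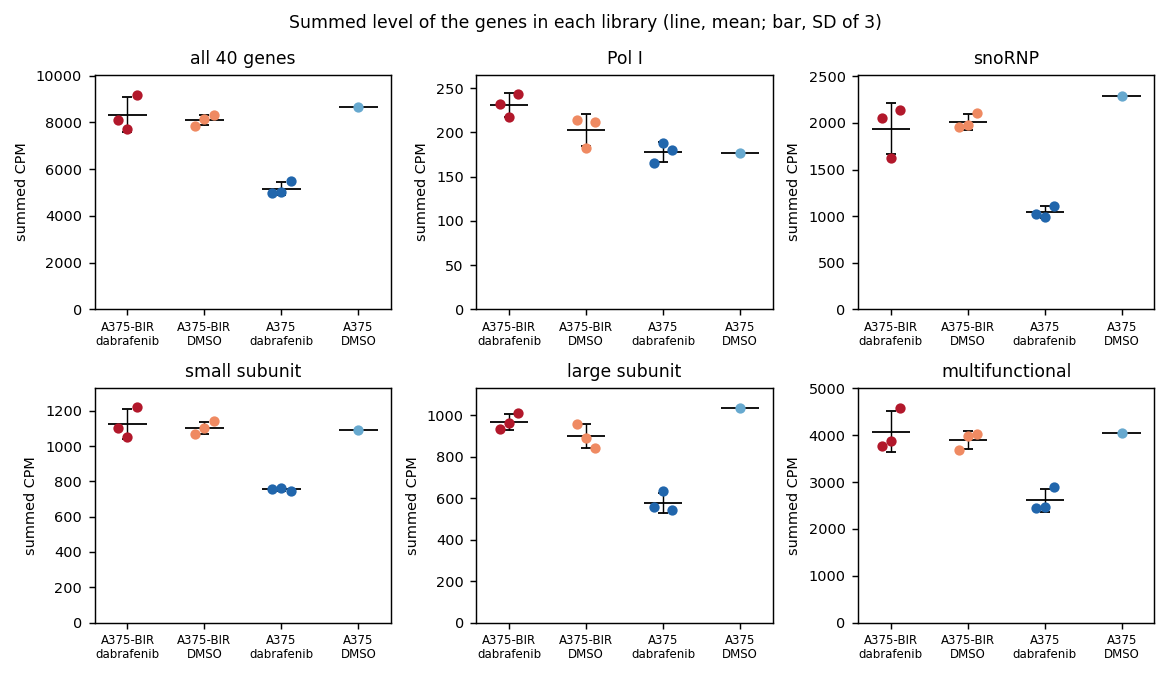
Summed level in CPM (vertical axis, from 0) of all 40 genes and of each role group, 1 point per library, for A375-BIR with dabrafenib, A375-BIR with DMSO, A375 with dabrafenib and A375 with DMSO (horizontal axis); the line is the mean and the bar the SD of 3. The 3 libraries of A375 with dabrafenib sum to 4958 to 5472 CPM over all 40 genes, below the 7 other libraries, which lie between 7725 and 9179 CPM.

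Gene by gene, 22 of the 40 were higher in A375-BIR than in A375 when both had dabrafenib, and none was lower (edgeR quasi-likelihood test, Benjamini-Hochberg adjusted p under 0.05 over 10236 genes). Of all tested genes 22.6% were higher and 20.2% lower in this comparison. The median fold between the lines was 1.57 over the 40 genes and 1.03 over all genes tested. In 19 of the 40 the 3 A375-BIR libraries all lay above the 3 A375 libraries and in none below, where 25.5% and 22.7% of all genes did so. URB2 is in both counts although it passed the filter on low counts only through A375-BIR with dabrafenib, where it was highest. Both groups bear the same run stamp. Without the A375 DMSO library, which enters only the estimate of the spread and the filter, 15 were higher and none lower. With mitochondrial transcripts and MALAT1 removed before scaling, 23 were higher and none lower. The higher count was 12 for calls that also held without each of the 6 libraries in turn.

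In A375-BIR, dabrafenib against DMSO gave no call among the 40 genes. Of all tested genes 1.36% were higher and 1.10% lower with dabrafenib. Among the 40, 4 had an unadjusted p under 0.05 in the edgeR test (FBL and NHP2 lower, NOP56 and URB2 higher), where 1457 of all 10236 tested genes did. The lowest Benjamini-Hochberg adjusted p was 0.223 (URB2), and DESeq2 made no call either. In 2 of the 40, UTP15 and URB2, the groups did not overlap, both higher with dabrafenib, where 9.07% of all genes did so upwards and 8.91% downwards. The approximate 95% interval, which is wider than the edgeR test implies, lay within a 2-fold change either way for 33 of the 40. It reached beyond for POLR1A, POLR1C, UTP15, UTP20, NOP2, PPAN and URB2, the last with an upper bound of 1.93 on the log2 scale. The absence of calls rested in part on single libraries. Without replicate 2 of A375-BIR with dabrafenib, NOP56 (log2 change 0.58, adjusted p = 0.0114 in edgeR) and UTP20 (0.83, adjusted p = 0.0363) were called higher, and without replicate 3 NHP2 was called lower (-0.66, adjusted p = 0.0369).

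**Figure D2:**
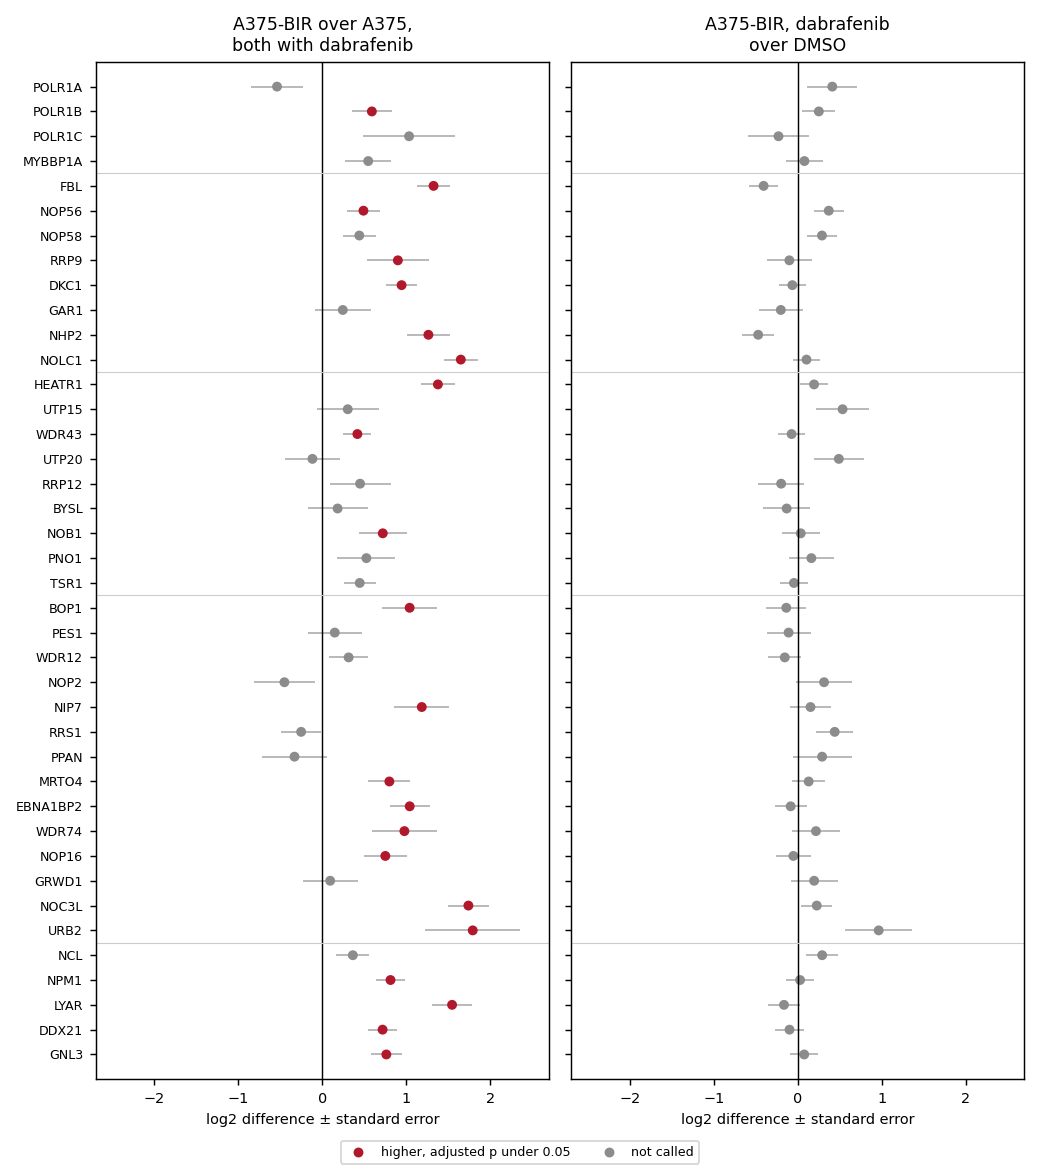
Fitted log2 difference (horizontal axis) with its standard error for each of the 40 genes (vertical axis, by role group), for A375-BIR over A375 with dabrafenib in both (left) and for dabrafenib over DMSO in A375-BIR (right); red points are genes called higher. On the left 22 genes are called higher and 35 lie above 0, and on the right none is called, with values between -0.47 and 0.96.

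Of the snoRNP group 6 of 8 genes were higher in A375-BIR under dabrafenib and none was lower, where 22.6% and 20.2% of all tested genes were. NOLC1 (ENSG00000166197, chr10:102152176-102163871, plus strand), the nucleolar chaperone that escorts snoRNPs, had 209, 231 and 254 CPM in A375-BIR with dabrafenib, 209, 209.7 and 222 CPM in A375-BIR with DMSO, 72.2, 73.6 and 73.3 CPM in A375 with dabrafenib and 141 CPM in A375 with DMSO. Its 6 A375-BIR libraries all lay above the A375 ones, and the 3 A375 libraries with dabrafenib lay closest together. NOLC1 was 3.14-fold higher in A375-BIR than in A375 with dabrafenib (log2 difference 1.65 ± 0.20 SE, edgeR adjusted p = 1.55e-08). FBL (ENSG00000105202, chr19:39834458-39846414, minus strand), fibrillarin, the methyltransferase of box C/D snoRNPs, had 593, 418 and 365 CPM in A375-BIR with dabrafenib, 597, 521 and 735 CPM in A375-BIR with DMSO, 188, 189.7 and 175 CPM in A375 with dabrafenib and 581 CPM in A375 with DMSO. The A375 libraries with dabrafenib were the lowest, while the DMSO libraries of the lines overlapped. FBL was 2.50-fold higher in A375-BIR than in A375 with dabrafenib (log2 difference 1.32 ± 0.20, edgeR adjusted p = 1.32e-06).

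The H/ACA snoRNPs, which carry out pseudouridylation, gave a similar picture for 2 of their 3 listed proteins. DKC1 (ENSG00000130826, chrX:154762742-154777689, plus strand), dyskerin, the pseudouridine synthase itself, had 395, 345 and 492 CPM in A375-BIR with dabrafenib, 418, 443 and 418 CPM in A375-BIR with DMSO, 237, 192 and 203 CPM in A375 with dabrafenib and 602 CPM in A375 with DMSO. The A375 libraries stood at both ends of this range, lowest with dabrafenib and highest with DMSO. DKC1 was 1.92-fold higher in A375-BIR than in A375 with dabrafenib (log2 difference 0.94 ± 0.18, edgeR adjusted p = 6.44e-05). NHP2, a core protein of the same particles, had 115, 92.7 and 166 CPM in A375-BIR with dabrafenib, 162, 159 and 186 CPM in A375-BIR with DMSO, 53.6, 60.3 and 22.6 CPM in A375 with dabrafenib and 168 CPM in A375 with DMSO, and was 2.40-fold higher in A375-BIR with dabrafenib than in A375 with dabrafenib (edgeR adjusted p = 0.000131). Replicate 3 of A375 with dabrafenib held 4 counts of NHP2. GAR1, the other core protein, had 32.4, 43.7 and 20.7 CPM in A375-BIR with dabrafenib, 35.6, 38.3 and 42.3 CPM in A375-BIR with DMSO, 22.7, 31.2 and 33.8 CPM in A375 with dabrafenib and 21.98 CPM in A375 with DMSO. Its groups with dabrafenib overlapped and the difference was not called (log2 0.24 ± 0.34, edgeR adjusted p = 0.587).

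Of the box C/D proteins, NOP56 and NOP58 form the core with fibrillarin, and RRP9 is specific to the U3 particle. NOP56 had 401, 239.7 and 424 CPM in A375-BIR with dabrafenib, 269, 289 and 264 CPM in A375-BIR with DMSO, 241, 237 and 293 CPM in A375 with dabrafenib and 524 CPM in A375 with DMSO. Its groups with dabrafenib overlapped, and its call between the lines (log2 0.49 ± 0.19, edgeR adjusted p = 0.0371) ended without replicate 1 or 3 of A375-BIR or replicate 1 or 2 of A375, where the log2 difference was 0.37 to 0.45. RRP9 had 41.9, 20.99 and 41.4 CPM in A375-BIR with dabrafenib, 32.2, 42.3 and 40.6 CPM in A375-BIR with DMSO, 18.6, 20.1 and 16.9 CPM in A375 with dabrafenib and 41.4 CPM in A375 with DMSO. In A375 with dabrafenib RRP9 rests on 9, 9 and 3 counts. Its groups with dabrafenib came close to each other without overlap, and the call (log2 0.90 ± 0.37, edgeR adjusted p = 0.0464) ended without replicate 1 or 3 of A375-BIR or any single A375 library, at log2 0.64 to 0.95. NOP58 was not called, with a log2 difference of 0.44 ± 0.20 (edgeR adjusted p = 0.072, unadjusted p = 0.0332).

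**Figure D3:**
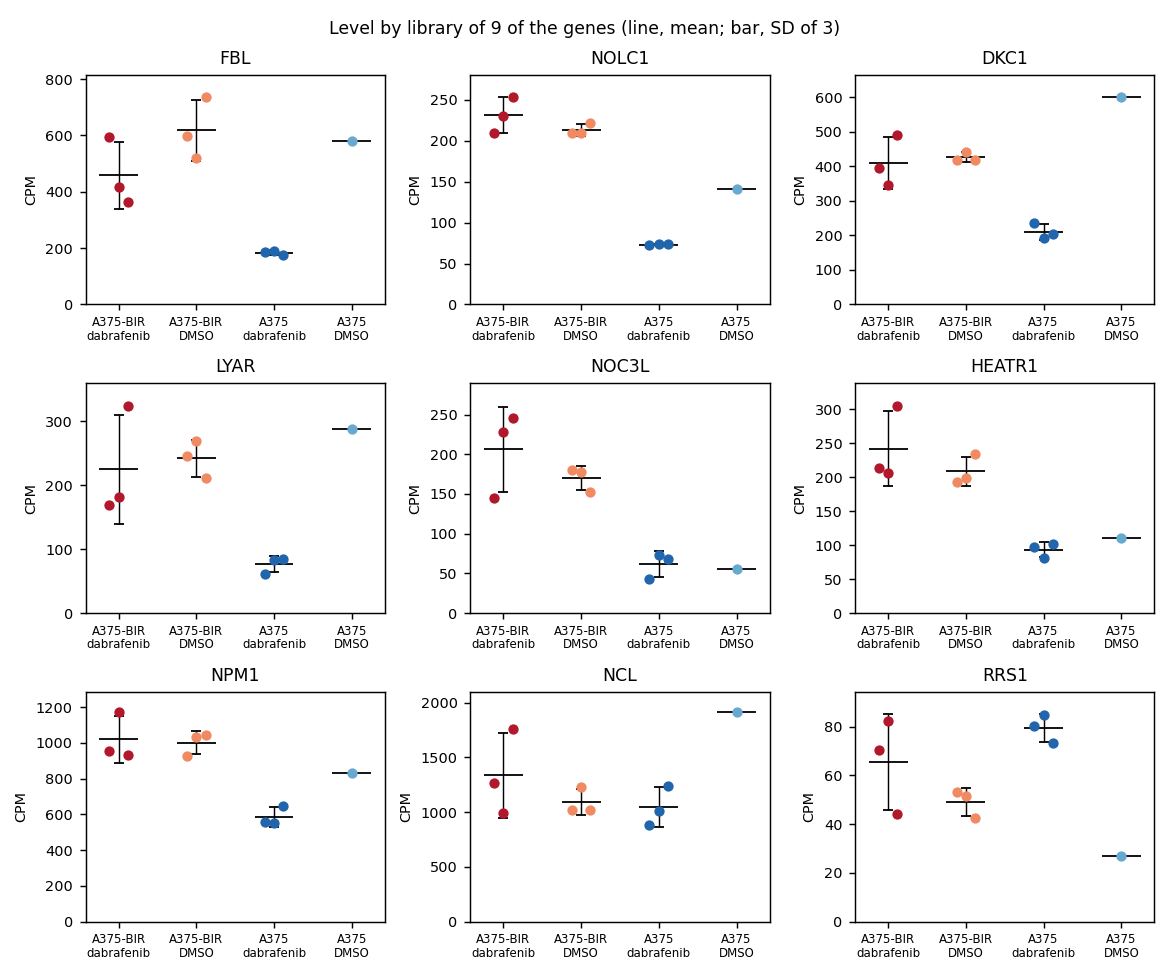
Level in CPM (vertical axis, from 0) of 9 of the genes, 1 point per library, in A375-BIR with dabrafenib, A375-BIR with DMSO, A375 with dabrafenib and A375 with DMSO (horizontal axis); the line is the mean and the bar the SD of 3. FBL, NOLC1, DKC1, LYAR, HEATR1 and NPM1 are lowest in A375 with dabrafenib by group mean, NOC3L is at 61.5 CPM there and 55.9 CPM in A375 with DMSO, and RRS1 is lowest in A375 with DMSO at 27.0 CPM.

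Small subunit assembly had fewer calls, with 3 of 9 genes higher in A375-BIR under dabrafenib and none lower. The shares of all tested genes were 22.6% higher and 20.2% lower. HEATR1 (ENSG00000119285, chr1:236549005-236604504, minus strand), a scaffold of the early small subunit processome that is also needed for precursor transcription, had 213, 206 and 305 CPM in A375-BIR with dabrafenib, 193, 199.6 and 234 CPM in A375-BIR with DMSO, 96.9, 80.3 and 102 CPM in A375 with dabrafenib and 111 CPM in A375 with DMSO. All A375-BIR libraries lay above all A375 libraries, whichever the treatment. HEATR1 was 2.60-fold higher in A375-BIR than in A375 with dabrafenib (log2 difference 1.38 ± 0.21, edgeR adjusted p = 1.15e-06). WDR43, another early processome protein, had 443, 439 and 484 CPM in A375-BIR with dabrafenib, 479, 488 and 466 CPM in A375-BIR with DMSO, 332, 366 and 316 CPM in A375 with dabrafenib and 478 CPM in A375 with DMSO. The A375 libraries with dabrafenib were the lowest, at a modest distance from the others. Its call (log2 0.42 ± 0.17, edgeR adjusted p = 0.0426) ended without replicate 1 or 3 of A375-BIR or any single A375 library, at log2 0.37 to 0.48. NOB1, the endonuclease that makes the final cut of 18S RNA, had 89.5, 98.0 and 33.6 CPM in A375-BIR with dabrafenib, 72.9, 77.6 and 79.6 CPM in A375-BIR with DMSO, 49.5, 49.1 and 39.5 CPM in A375 with dabrafenib and 95.4 CPM in A375 with DMSO. Replicate 3 of A375-BIR with dabrafenib lay below all A375 libraries, and the call (log2 0.72 ± 0.28, edgeR adjusted p = 0.0396) ended without replicate 1 or 2 of A375-BIR or any single A375 library, at log2 0.56 to 0.76. The 6 uncalled genes of this group, UTP15, UTP20, RRP12, BYSL, PNO1 and TSR1, had log2 differences between -0.12 and 0.52. Among them TSR1, a late assembly factor, had 175, 163 and 197 CPM in A375-BIR with dabrafenib and 115, 129 and 158 CPM in A375 with dabrafenib, which do not overlap, and an edgeR adjusted p of 0.0569.

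Large subunit assembly had 8 of 14 genes higher in A375-BIR under dabrafenib, none lower and 6 not called. The shares of all tested genes were 22.6% higher and 20.2% lower. NOC3L (ENSG00000173145, chr10:94333226-94362959, minus strand), a protein of early pre-60S particles, had 145, 227 and 246 CPM in A375-BIR with dabrafenib, 180.5, 177 and 152 CPM in A375-BIR with DMSO, 43.3, 73.6 and 67.7 CPM in A375 with dabrafenib and 55.9 CPM in A375 with DMSO. As for HEATR1, the lines were apart in both treatments. NOC3L was 3.34-fold higher in A375-BIR than in A375 with dabrafenib (log2 difference 1.74 ± 0.24, edgeR adjusted p = 2.5e-07). NIP7, another pre-60S factor, had 43.8, 73.5 and 51.8 CPM in A375-BIR with dabrafenib, 51.7, 42.3 and 55.9 CPM in A375-BIR with DMSO, 24.7, 29.01 and 11.3 CPM in A375 with dabrafenib and 32.0 CPM in A375 with DMSO. It was 2.27-fold higher in A375-BIR than in A375 with dabrafenib (edgeR adjusted p = 0.00358). The A375 values with dabrafenib rest on 12, 13 and 2 counts of NIP7. EBNA1BP2, whose yeast counterpart acts in early 60S assembly, had 186, 129 and 98.3 CPM in A375-BIR with dabrafenib, 167, 151 and 135 CPM in A375-BIR with DMSO, 59.8, 87.0 and 56.4 CPM in A375 with dabrafenib and 104 CPM in A375 with DMSO. It was 2.06-fold higher in A375-BIR than in A375 with dabrafenib (edgeR adjusted p = 0.000543). In all 3 genes the A375-BIR libraries with dabrafenib and with DMSO overlapped.

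The other 5 called genes of large subunit assembly depended on single libraries. BOP1, PES1 and WDR12 form the PeBoW complex, which is needed for processing of the 28S precursor. BOP1 had 65.7, 33.2 and 75.05 CPM in A375-BIR with dabrafenib, 61.0, 75.6 and 50.8 CPM in A375-BIR with DMSO, 30.9, 22.3 and 33.8 CPM in A375 with dabrafenib and 173 CPM in A375 with DMSO. The A375 DMSO library stood far above the rest, and replicate 2 of A375-BIR with dabrafenib lay among the A375 libraries with dabrafenib. The call between the lines in dabrafenib (log2 1.04 ± 0.33, edgeR adjusted p = 0.00955) ended without replicate 1 of A375-BIR or replicate 2 of A375, at log2 0.85 to 0.86. PES1 and WDR12 were not called, at log2 0.15 ± 0.32 and 0.31 ± 0.24. MRTO4, which holds a place on pre-60S particles that a ribosomal stalk protein later takes, had 77.1, 66.5 and 82.8 CPM in A375-BIR with dabrafenib, 68.6, 70.6 and 66.0 CPM in A375-BIR with DMSO, 41.2, 46.9 and 39.5 CPM in A375 with dabrafenib and 141 CPM in A375 with DMSO. The 4 groups did not overlap except within A375-BIR, and the call between the lines (log2 0.80 ± 0.25, edgeR adjusted p = 0.00991) ended without replicate 1 of A375, at log2 0.75. URB2 had 15.2, 24.5 and 33.6 CPM in A375-BIR with dabrafenib, 10.2, 11.1 and 13.5 CPM in A375-BIR with DMSO, 10.3, 2.23 and 5.64 CPM in A375 with dabrafenib and 6.91 CPM in A375 with DMSO. It had 92 counts over the 10 libraries, the fewest of the 40, and its call (log2 1.79 ± 0.57, edgeR adjusted p = 0.00996) ended without replicate 2 of A375, at log2 1.28. URB2 passed the filter on low counts only through A375-BIR with dabrafenib, so its call is not independent of that filter. The call of NOP16 (log2 0.75 ± 0.26, edgeR adjusted p = 0.0173) ended without replicate 2 of A375-BIR or replicate 1 or 3 of A375, at log2 0.56 to 0.80. The call of WDR74 (log2 0.98 ± 0.39, edgeR adjusted p = 0.0407) ended without replicate 1 or 3 of A375-BIR or any single A375 library, at log2 0.74 to 1.15.

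Of the multifunctional nucleolar proteins 4 of 5 were higher in A375-BIR under dabrafenib, where 22.6% of all tested genes were. All 4 calls held without each library in turn. LYAR (ENSG00000145220, chr4:4267701-4290169, minus strand), a nucleolar protein that takes part in precursor RNA processing, had 169, 182 and 323 CPM in A375-BIR with dabrafenib, 247, 269 and 212 CPM in A375-BIR with DMSO, 61.9, 82.6 and 84.6 CPM in A375 with dabrafenib and 288 CPM in A375 with DMSO. The A375 libraries with dabrafenib lay well below all others. LYAR was 2.92-fold higher in A375-BIR than in A375 with dabrafenib (log2 difference 1.54 ± 0.24, edgeR adjusted p = 2.46e-06). NPM1, nucleophosmin, a histone and ribosome chaperone of the nucleolus, had 955, 1170.4 and 934 CPM in A375-BIR with dabrafenib, 928, 1030.2 and 1044 CPM in A375-BIR with DMSO, 559, 549 and 649 CPM in A375 with dabrafenib and 831 CPM in A375 with DMSO. DDX21, a nucleolar RNA helicase, had 1181, 1242 and 1271 CPM in A375-BIR with dabrafenib, 1257, 1203 and 1495 CPM in A375-BIR with DMSO, 802, 678 and 767 CPM in A375 with dabrafenib and 818 CPM in A375 with DMSO. For both genes the A375-BIR libraries all lay above the A375 ones. NPM1 was 1.76-fold and DDX21 1.64-fold higher in A375-BIR than in A375 with dabrafenib (edgeR adjusted p = 0.000243 and 0.000986). GNL3, nucleostemin, had 202, 287 and 285 CPM in A375-BIR with dabrafenib, 226, 256 and 240.4 CPM in A375-BIR with DMSO, 148, 149.5 and 152 CPM in A375 with dabrafenib and 207 CPM in A375 with DMSO. It was 1.70-fold higher in A375-BIR than in A375 with dabrafenib (edgeR adjusted p = 0.00115). NCL, nucleolin, was the exception, with 1263, 988 and 1759.8 CPM in A375-BIR with dabrafenib, 1016, 1226 and 1024 CPM in A375-BIR with DMSO, 883, 1011 and 1241 CPM in A375 with dabrafenib and 1912 CPM in A375 with DMSO. Its groups with dabrafenib overlapped and the difference was not called (log2 0.36 ± 0.20, edgeR adjusted p = 0.133).

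Of the RNA polymerase I group 1 of 4 genes (25%) was higher in A375-BIR under dabrafenib and none was lower. Of all tested genes 22.6% were higher and 20.2% lower, so that the share higher was near that of all genes. POLR1B, the second largest subunit, had 119, 110.2 and 101 CPM in A375-BIR with dabrafenib, 104, 74.6 and 103 CPM in A375-BIR with DMSO, 82.5, 51.3 and 102 CPM in A375 with dabrafenib and 52.7 CPM in A375 with DMSO. The groups with dabrafenib overlapped by a narrow margin, and the call (log2 0.59 ± 0.24, edgeR adjusted p = 0.0422) ended without replicate 1 of A375-BIR or replicate 1 or 2 of A375, at log2 0.32 to 0.70. POLR1A, the largest subunit, had 30.5, 34.99 and 33.6 CPM in A375-BIR with dabrafenib, 21.2, 34.3 and 15.2 CPM in A375-BIR with DMSO, 39.2, 62.5 and 33.8 CPM in A375 with dabrafenib and 67.2 CPM in A375 with DMSO. It was among 5 of the 40 genes with a fitted value below 0, at log2 -0.54 ± 0.31 (edgeR adjusted p = 0.167). POLR1C, which RNA polymerase III shares, and MYBBP1A, a regulator of rRNA synthesis, were not called, at log2 1.03 ± 0.55 and 0.55 ± 0.27. In A375 with dabrafenib POLR1C had 3, 4 and 1 counts. The 4 other genes with a fitted value below 0 were NOP2, RRS1, PPAN and UTP20, at log2 -0.45, -0.25, -0.33 and -0.12.

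**Figure D4:**
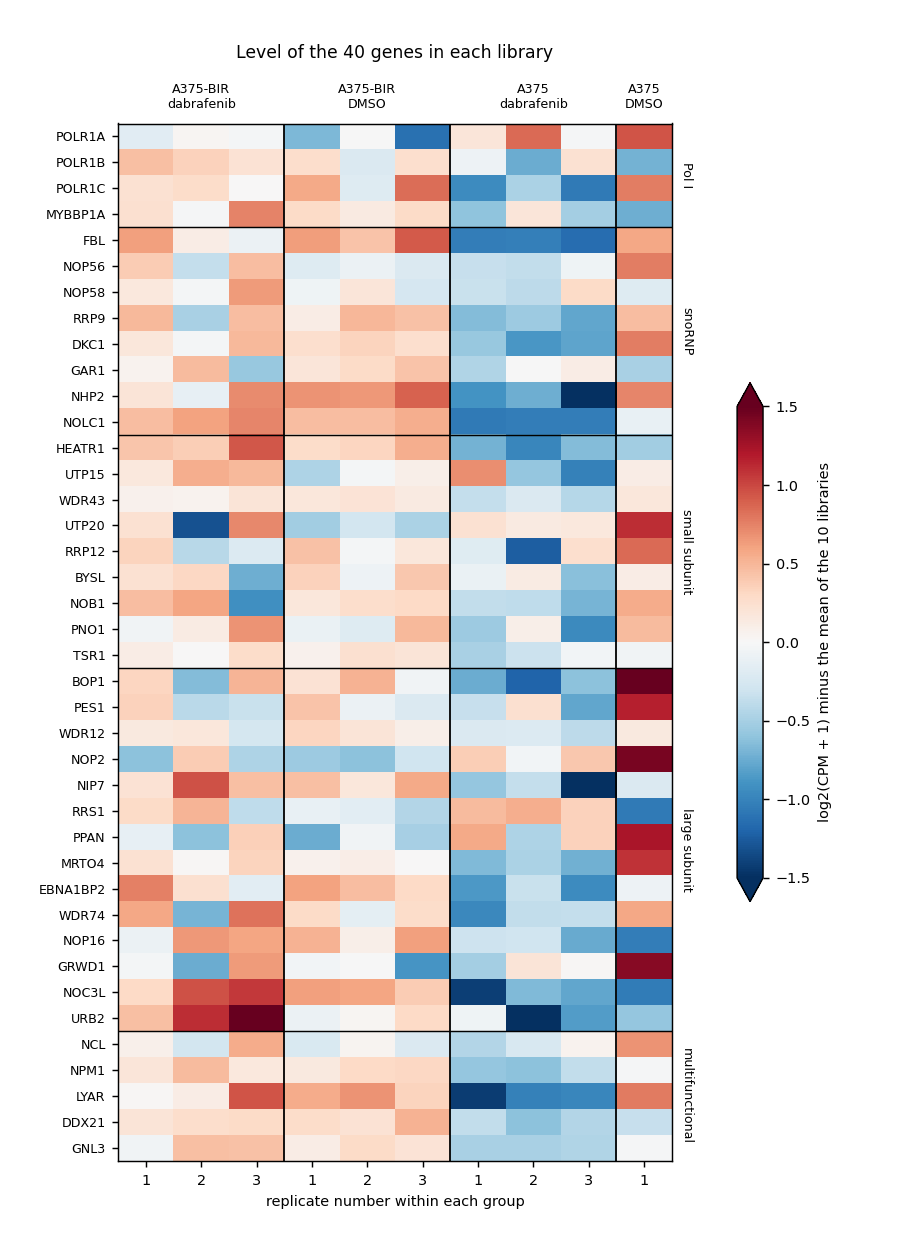
Level of each of the 40 genes (vertical axis, by role group) in each of the 10 libraries (horizontal axis, by group and replicate number), as log2(CPM + 1) minus the gene's mean over the libraries, in colour from blue (below the mean) to red (above it), with 1.5 as the end of the scale. The columns of A375 with dabrafenib are mostly blue, and the A375 DMSO column mixes high genes such as BOP1, NOP2 and GRWD1 with low ones such as RRS1, NOP16 and NOC3L.

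In A375, dabrafenib against the lone DMSO library gave 19 genes lower, 1 higher and 20 not called, where 20.7% of all tested genes were lower and 17.9% higher. The median log2 change was -0.69 over the 40 genes and 0.00 over all genes tested. Of the 20 calls 14 held without each A375 library with dabrafenib in turn, whereas the DMSO library could not be left out. The lower genes were 6 of 8 snoRNP genes, 3 of 9 of the small subunit, 7 of 14 of the large subunit, 2 of 5 multifunctional ones and 1 of 4 of RNA polymerase I. From the values given above, BOP1 was 6.16-fold lower with dabrafenib (log2 -2.62 ± 0.32, edgeR adjusted p = 4.94e-08), LYAR 3.86-fold lower (-1.95 ± 0.28, adjusted p = 9.8e-07), NHP2 3.33-fold lower (-1.74 ± 0.29, adjusted p = 1.08e-05) and FBL 3.13-fold lower (-1.65 ± 0.25, adjusted p = 1.95e-06). MRTO4 fell by 1.70 and DKC1 by 1.504 on the log2 scale, and NCL by 0.88 (edgeR adjusted p = 0.00639). With dabrafenib in A375 the 3 libraries all lay below the DMSO library for 29 of the 40 genes and above it for 4, where 38.0% and 34.0% of all genes did so. This comparison and that between the lines share the A375 libraries with dabrafenib.

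NOP2, PPAN and GRWD1 were among the genes lower in A375 with dabrafenib than with DMSO and not called between the lines under dabrafenib. The others were POLR1C, UTP20, RRP12, PES1 and NCL. NOP2, which methylates 28S RNA, had 16.2, 33.2 and 18.1 CPM in A375-BIR with dabrafenib, 16.9, 16.1 and 20.3 CPM in A375-BIR with DMSO, 33.0, 24.5 and 33.8 CPM in A375 with dabrafenib and 69.7 CPM in A375 with DMSO. GRWD1, a chaperone of a large subunit ribosomal protein, had 43.8, 26.2 and 69.9 CPM in A375-BIR with dabrafenib, 43.2, 44.4 and 23.7 CPM in A375-BIR with DMSO, 30.9, 51.3 and 45.1 CPM in A375 with dabrafenib and 117 CPM in A375 with DMSO. In both genes the A375 DMSO library stood alone above the other 9. The log2 change with dabrafenib in A375 was -1.22 ± 0.34 for NOP2 (edgeR adjusted p = 0.00396), -1.49 ± 0.33 for GRWD1 (adjusted p = 0.00052) and -1.06 ± 0.37 for PPAN (adjusted p = 0.0222). The PPAN call ended without replicate 2 of A375 with dabrafenib, at log2 -0.73. RRS1, which brings the 5S particle to the large subunit, was the single gene called higher. It had 70.4, 82.2 and 44.0 CPM in A375-BIR with dabrafenib, 53.4, 51.4 and 42.3 CPM in A375-BIR with DMSO, 80.4, 84.8 and 73.3 CPM in A375 with dabrafenib and 27.0 CPM in A375 with DMSO. It was 2.98-fold higher with dabrafenib in A375 (log2 1.57 ± 0.33, edgeR adjusted p = 0.000234). The remaining calls that ended without 1 library of A375 with dabrafenib were POLR1C (replicate 1, log2 -1.49), RRP9 (replicate 1 or 2, -1.18 to -1.11), RRP12 (replicate 2, -0.90), WDR74 (replicate 1, -0.97) and UTP20 (any, -0.97 to -0.90).

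**Figure D5:**
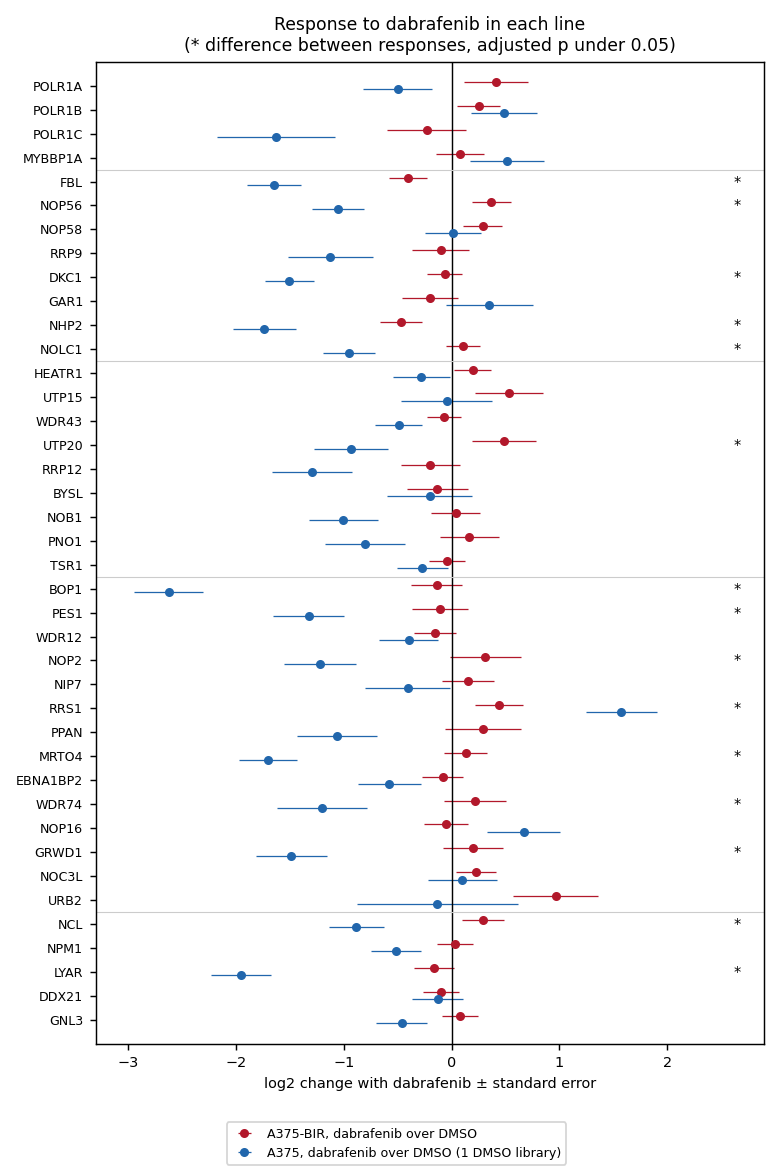
Fitted log2 change with dabrafenib (horizontal axis) with its standard error for each of the 40 genes (vertical axis, by role group), in A375-BIR (red) and in A375 (blue, against 1 DMSO library); an asterisk marks genes whose responses differed between the lines. The A375-BIR values lie between -0.47 and 0.96 and the A375 values between -2.62 and 1.57, and 15 genes carry an asterisk.

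The response of A375-BIR minus that of A375 was tested as an interaction. It was higher than 0 for 14 of the 40 genes and lower for 1, where 12.7% of all tested genes were higher and 9.87% lower, and its median was 1.00 on the log2 scale over the 40 genes and 0.04 over all genes. The same lone A375 DMSO library enters every one of these values. BOP1 had the highest difference, with a log2 change of -0.14 in A375-BIR and -2.62 in A375 (difference 2.49 ± 0.41, edgeR adjusted p = 3.56e-05). MRTO4 followed with 0.13 in A375-BIR and -1.70 in A375 (1.83 ± 0.34, edgeR adjusted p = 0.000155), and LYAR with -0.16 in A375-BIR and -1.95 in A375 (1.79 ± 0.34, edgeR adjusted p = 0.000258). RRS1 was the gene below 0, with 0.44 in A375-BIR and 1.57 in A375 (-1.13 ± 0.40, edgeR adjusted p = 0.0356). Calls for FBL, NOP56, DKC1, NHP2, NOLC1, BOP1, MRTO4, GRWD1, NCL and LYAR held without each of 9 libraries in turn, and those for UTP20, PES1, NOP2, WDR74 and RRS1 ended without at least 1. Of the genes called higher in A375-BIR in both treatments, NOLC1 had a called difference between responses (log2 1.06 ± 0.29). This difference was not called for HEATR1, NOC3L and DDX21 (log2 0.48 ± 0.31, 0.13 ± 0.37 and 0.03 ± 0.29). Nor was it called for POLR1B and NOP16 (log2 -0.24 ± 0.36 and -0.72 ± 0.40).

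In DMSO 9 of the 40 genes were higher in A375-BIR than in the A375 library and 10 were lower. Of all tested genes 25.1% were higher and 26.7% lower, so that the 40 genes were near the shares of all genes. With raw totals in place of TMM, which moved the median log2 difference of all genes to 0.41, the split was 14 higher and 7 lower. The 3 A375-BIR libraries all lay above the A375 library for 15 of the 40 genes and all below it for 16, where 41.8% and 42.6% of all genes did so. The genes higher in A375-BIR included NOC3L (3.06-fold, log2 1.61 ± 0.28, edgeR adjusted p = 1.19e-05), NOP16 (2.77-fold, 1.47 ± 0.30, adjusted p = 0.0001) and HEATR1 (1.87-fold, 0.90 ± 0.24, adjusted p = 0.00219). The lower ones included NOP2 (log2 -1.99 ± 0.31, edgeR adjusted p = 1.37e-06), PPAN (-1.68 ± 0.33, adjusted p = 6.72e-05), GRWD1 (-1.59 ± 0.29, adjusted p = 1.94e-05), UTP20 (-1.54 ± 0.31, adjusted p = 8.94e-05) and BOP1 (-1.45 ± 0.25, adjusted p = 9.38e-06). UTP20, a large scaffold protein of the processome and one of the genes with an E-box, had 47.6, 15.7 and 67.3 CPM in A375-BIR with dabrafenib, 28.0, 33.3 and 28.8 CPM in A375-BIR with DMSO, 47.4, 44.6 and 45.1 CPM in A375 with dabrafenib and 87.9 CPM in A375 with DMSO. Its A375-BIR libraries with dabrafenib were the most scattered, and the A375 DMSO library the highest. Over all 4 groups, A375 with dabrafenib had the lowest mean for 27 of the 40 genes, where it did so for 29.4% of all tested genes. In this ranking the A375 DMSO value is that of 1 library.

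A second list of 123 further ribosome biogenesis genes, 120 of them tested, was read for the same comparisons. Between the lines in dabrafenib 29 (24.2%) were higher in A375-BIR and 3 (2.5%) lower, where 22.6% and 20.2% of all tested genes were, so that the share higher was near that of all genes. The median fold was 1.28, against 1.03 over all genes tested. In A375-BIR none was called with dabrafenib by the edgeR test, where 1.36% of all tested genes were higher and 1.10% lower. Of the 120, 9 had an unadjusted p under 0.05 in that test, where 1457 of all 10236 tested genes did. In A375 42 (35%) were lower and 10 (8.33%) higher with dabrafenib, where 20.7% and 17.9% of all tested genes were. The difference between responses was above 0 for 28 (23.3%) and below 0 for 5 (4.17%), where 12.7% and 9.87% of all tested genes were. POLR1G, an RNA polymerase I subunit, had 86.6, 64.7 and 114 CPM in A375-BIR with dabrafenib, 62.7, 82.7 and 77.9 CPM in A375-BIR with DMSO, 35.1, 26.8 and 11.3 CPM in A375 with dabrafenib and 107 CPM in A375 with DMSO, and was 3.12-fold higher in A375-BIR than in A375 with dabrafenib (edgeR adjusted p = 3.02e-05). BRIX1, a pre-60S factor, had 179.9, 180.2 and 192 CPM in A375-BIR with dabrafenib, 209, 179 and 189.6 CPM in A375-BIR with DMSO, 68.1, 55.8 and 102 CPM in A375 with dabrafenib and 87.9 CPM in A375 with DMSO, and was 2.62-fold higher in A375-BIR than in A375 with dabrafenib (edgeR adjusted p = 1.86e-06). Both genes were lower in every A375 library with dabrafenib than in every A375-BIR library. PIH1D1, RUVBL1 and RUVBL2, parts of the machinery that assembles box C/D snoRNPs, were 3.08-fold, 2.27-fold and 2.48-fold higher in A375-BIR than in A375 with dabrafenib. EXOSC10, a nuclease of the nuclear RNA exosome, went the other way, with 29.5, 29.7 and 23.3 CPM in A375-BIR with dabrafenib, 27.1, 28.2 and 23.7 CPM in A375-BIR with DMSO, 63.9, 82.6 and 102 CPM in A375 with dabrafenib and 54.0 CPM in A375 with DMSO. It was lower in A375-BIR than in A375 with dabrafenib (log2 -1.47 ± 0.27, edgeR adjusted p = 3.13e-05). TAF1D, part of the factor that brings RNA polymerase I to its promoter, had 634, 1426 and 989 CPM in A375-BIR with dabrafenib, 1095, 1059 and 1215 CPM in A375-BIR with DMSO, 608, 540.1 and 609 CPM in A375 with dabrafenib and 209.7 CPM in A375 with DMSO. Unlike most of the list it was higher with dabrafenib in A375 (log2 1.48 ± 0.31, edgeR adjusted p = 0.000305).

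MYC itself did not pass the filter on low counts and was not tested. It had 10, 6 and 2 counts in A375-BIR with dabrafenib, 6, 6 and 6 in A375-BIR with DMSO, 1, 0 and 0 in A375 with dabrafenib and 5 in A375 with DMSO. Its level was 8.40 ± 2.83 CPM in A375-BIR with dabrafenib and 0.69 ± 1.19 CPM in A375 with dabrafenib (SD, n = 3 each), and the libraries of these groups did not overlap. The counts of 0 in A375 with dabrafenib replicates 2 and 3 each allow up to 3 counts, which is 6.47 and 15.1 CPM of their raw totals. Of the MYC network list 8 of 11 genes were tested, and between the lines in dabrafenib 3 were lower in A375-BIR and none higher, where 20.2% of all tested genes were lower and 22.6% higher. MNT, a MAX partner that represses MYC targets, had 60.9, 49.0 and 54.3 CPM in A375-BIR with dabrafenib, 61.9, 69.6 and 76.2 CPM in A375-BIR with DMSO, 128, 82.6 and 135 CPM in A375 with dabrafenib and 68.4 CPM in A375 with DMSO. It was lower in A375-BIR than in A375 with dabrafenib (log2 -1.01 ± 0.23, edgeR adjusted p = 0.000615), as were MXD4 (-1.21 ± 0.46, adjusted p = 0.0297) and MLX (-0.92 ± 0.34, adjusted p = 0.0269).

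Proliferation genes moved with the 40 genes in some comparisons and apart from them in another. The summed level of 17 proliferation genes was 2060, 1790 and 1975 CPM in A375-BIR with dabrafenib, 3379, 3545 and 3613 CPM in A375-BIR with DMSO, 462, 538 and 446 CPM in A375 with dabrafenib and 3203 CPM in A375 with DMSO. Of the 17, 15 were higher in A375-BIR than in A375 with dabrafenib and none lower, and 14 were lower with dabrafenib in A375 and none higher, against the shares of all tested genes given above. In A375-BIR 8 of the 17 were lower with dabrafenib and none higher (edgeR, adjusted p under 0.05), while none of the 40 ribosome biogenesis genes was called. The part of proliferation in the values of the 40 genes was not tested.

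The counting leaves some of the 40 genes uncertain. In GENCODE 29 (GRCh38) 13 of them end at their 3′ side in another listed gene, among them HEATR1 (LGALS8), NHP2 (RMND5B), GNL3 (GLT8D1), NOP16 (ARL10) and TSR1 (SRR), and the strand setting of the counts is not given in the sources used here. For HEATR1 (AL359921.1), PPAN (P2RY11 and the readthrough PPAN-P2RY11) and GRWD1 (KCNJ14) the overlapping gene is on the same strand, so that counting by strand would not separate them. Of the 40 genes 9, NOP56, NOP58, GNL3 and NCL among them, hold 28 snoRNAs inside their span. NPM1 has 45 processed copies named after it and NOP56 and NIP7 have 3 each, with which reads could be shared. NOLC1, FBL, DKC1, NOC3L, DDX21 and BOP1 have no such overlap at their 3′ end and no such copy.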

How the data were processed

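Gene expression was measured by 3′ tag sequencing (QuantSeq FWD) of 250 ng total RNA per sample as single-end reads, per the labels' protocols. The authors deposited raw counts per gene for each of 12 libraries, with no normalization; the build is hg38, per the submitters' processing notes. For the aligner, counter, annotation and strand, nothing is given in the sources used here. The lines for reads given to no gene were left out of all totals, and counts on genes made up 20.4% to 31.1% of a human library. The 10 libraries that list human genes entered 1 fit in edgeR 4.0.16 (R 4.3.3): filterByExpr at its minimum count of 10, TMM scaling, quasi-likelihood with a robust spread, 1 coefficient per group and 6 residual degrees of freedom, with Benjamini-Hochberg adjustment over the 10236 genes tested and calls under 0.05. The common biological coefficient of variation was 0.136. A log2 change is fitted with a prior count, a standard error is the size of the change over √F, and an approximate 95% interval uses a t value with 6 degrees of freedom. That interval is wider than the edgeR test implies, so that it can span 0 where the unadjusted p is under 0.05. CPM differ between genes by capture as well as abundance and were compared only within a gene or a fixed sum, in which abundant genes weigh most. A count of 0 allows up to 1.50 to 15.1 CPM of a human library's total (3 counts, counting error only). A375 with DMSO entered with 1 library. The members and lists were chosen with earlier results of these data known. Named were all 40 members by role with their counts, the members with the smallest p and the called ones with values, and up to 3 called genes of each further list and comparison. Alternatives were other scalings, filters and depths, DESeq2 1.42.0, a replicate block, fewer libraries and, chosen after seeing the data, leaving out replicate 3 of dabrafenib in each line. No pair of libraries held identical counts.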

Additional observations from a re-analysis of the deposited data

Results flagged for a closer look

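The response to dabrafenib differed between the lines, by the edgeR interaction test against the lone A375 DMSO library, for 15 of the 40 genes. Of all tested genes 12.7% were higher and 9.87% lower by this test. The difference, response of A375-BIR minus response of A375 on the log2 scale, was 2.49 for BOP1, 1.83 for MRTO4, 1.79 for LYAR, 1.68 for GRWD1, 1.54 for NOP2, 1.44 for DKC1, 1.43 for UTP20, 1.42 for NOP56, 1.42 for WDR74, 1.26 for NHP2, 1.24 for FBL, 1.22 for PES1, 1.17 for NCL and 1.06 for NOLC1. RRS1 was the gene with a negative difference, at -1.13. The calls for UTP20, PES1, NOP2, WDR74 and RRS1 did not all hold when single libraries were left out.

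The files of A375 DMSO replicates 2 and 3 held 224221 and 652439 counts on mouse gene identifiers and were used in no comparison.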

How the results depend on the processing

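No called direction reversed under any setting; some uncalled values changed sign. For A375-BIR with dabrafenib against DMSO, the counts of 0 higher and 0 lower became 1 lower without replicate 3 of dabrafenib in both lines, and ranged over 0 to 2 higher and 0 to 1 lower when single libraries were left out. Between the lines in dabrafenib, 22 higher became 13 under a filter on mean counts (at least 50) and 13 after thinning to the smallest library, and ranged from 14 (without A375 with dabrafenib replicate 1) to 24 (without A375-BIR with dabrafenib replicate 2). For dabrafenib in A375, 1 higher and 19 lower became 2 higher with raw totals, 2 higher with only the groups compared, 0 higher and 10 lower under that filter, and 10 lower after thinning. Between the lines in DMSO, 9 higher and 10 lower became 14 higher with raw totals, 4 higher with DESeq2, 5 lower with the mean count filter, and 2 higher and 5 lower after thinning, and ranged from 5 to 8 higher when single libraries were left out. For the difference between responses, 14 higher and 1 lower became 9 higher with raw totals, 9 higher and 0 lower with DESeq2, 9 and 0 with the mean count filter, 8 and 0 after thinning, 0 lower with no filter and 0 lower without replicate 3 of dabrafenib in both lines, and ranged over 0 to 1 lower when single libraries were left out. Raw totals moved the median log2 value of all genes by 0.41 between the lines in DMSO, 0.26 in the response of A375, 0.16 between the lines with dabrafenib, and -0.24 for the difference of the responses. The mean count filter tested fewer genes and thinning left fewer counts; other causes were not tested. Over single genes and all settings, a call of the main fit held in 923 checks and was lost in 192. A gene uncalled in the main fit gained a call in 57 checks. Uncalled genes that stayed uncalled were not counted.

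Same-numbered libraries of different groups had correlations of -0.12 to 0.11 in their deviations from the group means. Libraries of different number had correlations of -0.11 to 0.14. With few libraries and few counts, such values cannot show whether replicate numbers pair the samples. With a replicate block the counts were 18 higher between the lines in dabrafenib, 16 lower and 1 higher in the response of A375, 8 higher and 10 lower between the lines in DMSO, 11 higher and 1 lower in the difference between responses, and 0 in the response of A375-BIR. At the depth of the smallest library, calls were fewer in every comparison that had any.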
